A study of Mus musculus with 8 samples.

Results

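The alpha, omega, zeta and kappa class glutathione S-transferase genes Gsta2, Gsta3, Gsta4, Gsto1, Gstz1 and Gstk1 and the microsomal genes Mgst1, Mgst2 and Mgst3 were examined in kidneys of mice with constitutive NRF2 activity. These 9 genes were taken from a list of names, not picked by their measured values, out of the 18217 genes that the arrays name. Earlier results of these data were known when the genes were chosen. For Gstk1 no probe was named, so Gstk1 was not measured here and 8 genes were analysed. Kidney total RNA from 8 mice, all 8 weeks old, was labelled with Cy3 and each mouse was read on an Agilent 1-colour array of its own. NEKO mice (Keap1-/-::Nrf2Flox/Flox::K5-Cre, 2 females and 2 males) lack Keap1 throughout the body, and lose Nrf2 where the Keratin5 promoter drives Cre, in squamous epithelium. Controls were Keap1+/-::Nrf2Flox/Flox::K5-Cre mice (K1Cre, 1 female and 2 males) and 1 female Keap1+/-::Nrf2Flox/Flox mouse without Cre (K1, control replicate 1). All 8 mice carry the floxed Nrf2 alleles on a mixed 129Sv/J and C57BL/6J background, the controls keep 1 intact Keap1 allele, and no Keap1 wild-type mouse was included.

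KEAP1 is the adaptor through which the transcription factor NRF2 is marked for degradation, and NRF2 acts through antioxidant response elements (AREs) near its target genes, many of which encode detoxifying enzymes. Glutathione S-transferases join the tripeptide glutathione to reactive electrophiles. The alpha, omega and zeta enzymes are soluble, the kappa enzyme lies in mitochondria and peroxisomes, and the microsomal enzymes are membrane proteins of the separate MAPEG family, some of which make the lipid mediator leukotriene C4. In the kidney the alpha enzymes are best known from the proximal tubule.

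To show the sequence in front of the genes that the results turn on, windows from 250 bases before to 50 bases after the annotated start were taken from RefSeq (GRCm38.p6). The 8 genes with a window, Gstk1 among them, had 10 windows, and Gsta4 had none. Both strands were searched for the ARE core, TGACNNNGC, which was found in 12.4% of all 32851 promoter windows of this length, and for the AP-1-like motif TGACTCA, found in 5.20%. The AP-1-like letters match the ARE core as well where GC follows them. An ARE core was found in the window of Gsta3 and in 1 of the 2 windows of Mgst1. An AP-1-like motif, not followed by GC, was found in the window of Mgst2. For Gsta2, Gsto1, Gstz1, Gstk1 and Mgst3 these letters were in no window. Whether these motifs act in these kidneys was not tested. In the following windows, written 5′ to 3′ in the direction of the gene, capitals mark the motif, which begins 121 bases before the start in Gsta3 (chr1:21240335-21240634, + strand), 56 bases before it in Mgst1 (chr6:138140277-138140576, + strand, motif on the opposite strand) and 52 bases before it in Mgst2 (chr3:51660929-51661228, + strand).
Gsta3: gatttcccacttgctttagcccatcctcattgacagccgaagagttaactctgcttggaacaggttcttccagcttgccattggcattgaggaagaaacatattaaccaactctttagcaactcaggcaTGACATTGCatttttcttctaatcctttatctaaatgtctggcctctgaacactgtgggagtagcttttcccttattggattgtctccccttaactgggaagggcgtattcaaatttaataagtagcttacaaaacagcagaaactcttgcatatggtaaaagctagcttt
Mgst1: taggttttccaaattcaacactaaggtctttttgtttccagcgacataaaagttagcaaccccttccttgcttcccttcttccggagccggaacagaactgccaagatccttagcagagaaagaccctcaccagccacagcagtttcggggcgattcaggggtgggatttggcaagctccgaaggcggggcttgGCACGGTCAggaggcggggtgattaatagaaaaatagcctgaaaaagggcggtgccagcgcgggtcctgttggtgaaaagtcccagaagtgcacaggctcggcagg
Mgst2: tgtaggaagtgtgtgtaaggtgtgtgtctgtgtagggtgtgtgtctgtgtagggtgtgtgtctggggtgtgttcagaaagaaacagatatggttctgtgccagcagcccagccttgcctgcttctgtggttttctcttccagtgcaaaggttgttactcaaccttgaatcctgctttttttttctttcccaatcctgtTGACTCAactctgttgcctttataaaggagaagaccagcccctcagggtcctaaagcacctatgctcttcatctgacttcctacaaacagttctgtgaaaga

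The windows of Gsta2 (chr9:78347096-78347395, - strand) and of its close relative Gsta1 (chr9:78230419-78230718, + strand) are shown because Gsta1 was the gene whose profile over the 8 arrays was most like that of Gsta2. They were identical in 74.6% of 311 aligned columns, against 50.8% of 321 for Gsta2 and Gsta3. Capitals mark the longest stretch, of 29 bases, that both windows share letter for letter.
Gsta1: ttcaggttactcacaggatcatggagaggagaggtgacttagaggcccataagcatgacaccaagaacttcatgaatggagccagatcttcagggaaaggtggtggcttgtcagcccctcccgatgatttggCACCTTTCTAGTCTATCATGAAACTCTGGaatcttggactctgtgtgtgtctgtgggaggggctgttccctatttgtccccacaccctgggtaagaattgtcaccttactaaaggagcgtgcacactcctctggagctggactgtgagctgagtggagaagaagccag
Gsta2: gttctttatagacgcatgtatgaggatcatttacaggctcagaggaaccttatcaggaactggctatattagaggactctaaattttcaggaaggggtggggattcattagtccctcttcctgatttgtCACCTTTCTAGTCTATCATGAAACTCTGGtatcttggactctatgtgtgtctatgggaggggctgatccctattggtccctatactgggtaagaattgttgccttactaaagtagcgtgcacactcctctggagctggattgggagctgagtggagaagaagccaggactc

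Levels are given as the log2 processed signal less the 75th percentile of that array's non-control probes, on which scale a difference of 1 is a 2-fold change. Levels were compared between mice for each gene and never between genes, since each probe has its own brightness. The genotype effect was fitted in limma beside a term for sex. Genes with an adjusted p under 0.05, over all 19593 genes and unnamed transcripts tested, are referred to as called. Sex and slide cannot be told apart, since the slides divided the mice by sex. On each slide were 2 mice of either group. The share of probes well above background was 61.8% to 65.7% per array, and all 25 tested markers of kidney tubule segments were above it on all 8 arrays. Keap1 was 0.20 ± 0.17 (SD, n = 4) in NEKO and 1.84 ± 0.07 (SD, n = 4) in control kidneys (log2 change -1.63, limma adjusted p = 0.0046). The NRF2 target Nqo1 was 2.62 higher on the log2 scale in NEKO kidneys, with every NEKO mouse above every control mouse, and was not called (limma adjusted p = 0.065). It was called when the effect was averaged over the sexes in a model that lets sex and genotype interact (limma adjusted p = 0.0095). Control replicate 4, a male, had the lowest share of probes above background (61.8%) and the most outlier spots (172). Other arrays were close to it on both, with 61.9% for NEKO replicate 6 and 162 spots for control replicate 1. Control replicate 4 was the lowest of the 8 arrays for 7 of the 8 genes analysed, against 16.7% of all features, so results are also given without it. Kidneys were measured whole, so fewer cells of a type and less RNA per cell cannot be told apart.

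None of the 8 genes was called higher or lower by limma, against 0.097% of all features called higher and 0.128% called lower. Without adjustment, 6 of the 8 had a limma p under 0.05 with higher levels in NEKO kidneys (7.39% of all features) and none with lower levels (10.6%). These were Gsta2, Gsta3, Gsta4, Gsto1, Mgst1 and Mgst2, with log2 changes of 1.11 to 1.92, while Gstz1 and Mgst3 were close to 0. For 4 of the 8 genes (Gsta3, Gsto1, Mgst1 and Mgst2) the groups were separated, with all NEKO mice above all controls, against 3.89% of all features. For none did all NEKO mice lie below all controls, against 5.39% of all features. The median log2 change was 1.44 over the 8 genes and -0.03 over all features. When the effect was averaged over the sexes in the model that lets sex and genotype interact, Gsto1, Mgst1 and Mgst2 were called higher (adjusted p = 0.012, 0.030 and 0.041 from limma), where 1.25% of all features were. The unpaired test named in the methods gave 4 of the 8 at p under 0.05 before adjustment, where 4.82% of features were so called, and none after it.

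**Figure D1:**
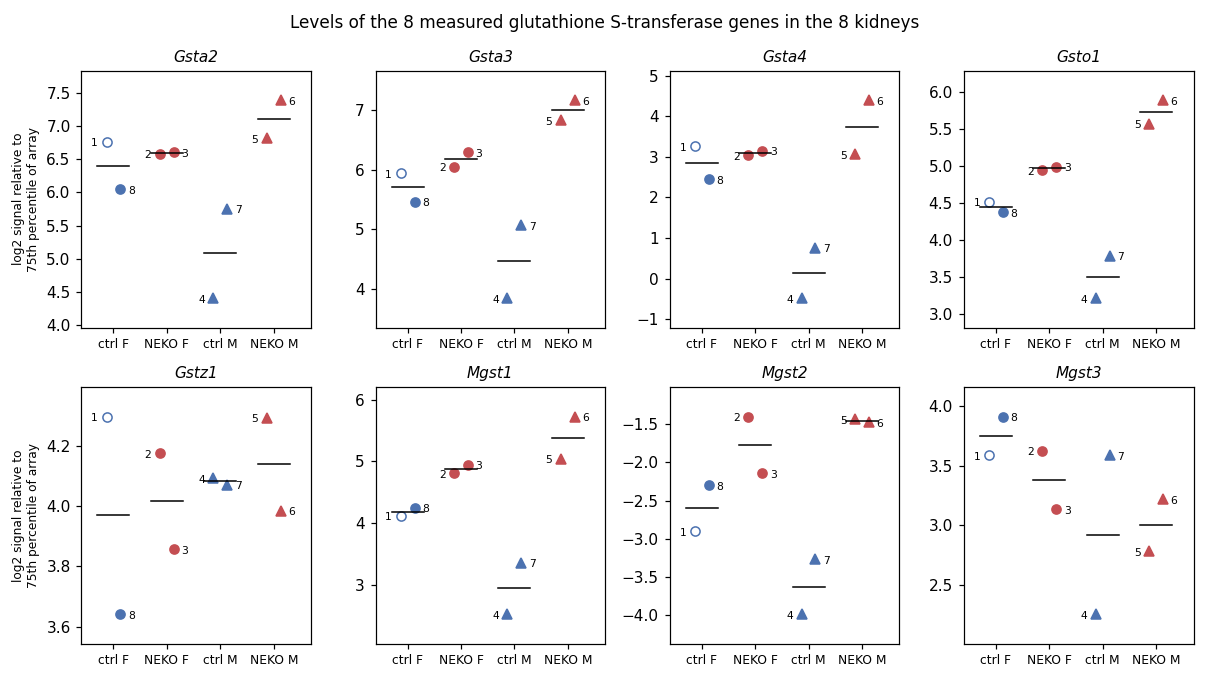
Level of each gene in each mouse (y axis, log2 signal relative to the array's 75th percentile), with control (blue) and NEKO (red) females (circles) and males (triangles) side by side. Numbers are the replicates, black lines the mean of 2 mice, and the open circle is control replicate 1, which lacks K5-Cre. Both NEKO males lay above both control males for Gsta2, Gsta3, Gsta4, Gsto1, Mgst1 and Mgst2 (24.2% of all features). For Gstz1 and Mgst3 the males of the groups overlapped.

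Among the alpha class genes, Gsta2, an enzyme that conjugates electrophiles and reduces organic hydroperoxides, was at 6.76 and 6.05 in the control females and at 4.41 and 5.75 in the control males. In NEKO kidneys it was at 6.59 and 6.60 in females and at 6.82 and 7.39 in males. Control replicate 1 lay above both NEKO females, so the groups overlapped. This was a log2 change of 1.11 (standard error 0.47, limma adjusted p = 0.277), and 0.65 without control replicate 4. Gsta1, the related gene, had a log2 change of 0.95 (limma adjusted p = 0.289) and followed Gsta2 closely over the 8 arrays, with a root mean square difference of 0.109 between their mean-centred log2 profiles, the smallest for Gsta2 among 12691 other genes. Probes of such close relatives may share target RNA, which the files used here cannot resolve.

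Gsta3, whose product in the mouse is known for conjugating the epoxide of aflatoxin B, was at 5.94 and 5.47 in control females, 3.85 and 5.07 in control males, 6.05 and 6.30 in NEKO females and 6.83 and 7.16 in NEKO males. All 4 NEKO mice lay above all 4 controls, by 0.11 at the narrowest point. Its log2 change was 1.50 (standard error 0.47, limma adjusted p = 0.191), and 1.05 without control replicate 4. A second Gsta3 probe gave 1.51. An exact two-sided permutation test of the 8 mice gave p = 0.0286 for Gsta3, which is the smallest that 70 arrangements can give and was also reached by Gsto1, Mgst1 and Mgst2 among the 8 genes looked at.

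Gsta4, which is specialised for 4-hydroxynonenal, a product of lipid peroxidation, had the widest spread. It was at 3.26 and 2.44 in control females and at -0.48 and 0.76 in control males. In NEKO mice it was at 3.05 and 3.16 in females and at 3.07 and 4.39 in males. Control replicate 1 lay above 3 of the 4 NEKO mice, and the low values were those of the control males alone. The log2 change was 1.92 (standard error 0.73, limma adjusted p = 0.242, exact permutation p = 0.114), and 1.34 without control replicate 4. It was also 1.32 without NEKO replicate 6.

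Of the omega class, Gsto1, which has a cysteine in its active site and reduces dehydroascorbate and methylated arsenicals, was at 4.51 and 4.37 in control females, 3.21 and 3.78 in control males, 4.94 and 4.98 in NEKO females and 5.56 and 5.88 in NEKO males. The groups were separated by 0.43 on the log2 scale. On the log2 scale the change was 1.37 (standard error 0.35, limma adjusted p = 0.141), a 2.59-fold difference, and 1.09 without control replicate 4. Gsto2, the other omega gene, had the opposite sign, with a log2 change of -0.71 (standard error 0.14, limma adjusted p = 0.092) and overlapping groups.

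The zeta class gene Gstz1 encodes maleylacetoacetate isomerase, which acts in the breakdown of tyrosine. Its levels ran from 3.64 to 4.30 in controls and from 3.86 to 4.29 in NEKO kidneys, so the NEKO range lay inside that of the controls. NEKO minus control was 0.05 on the log2 scale (standard error 0.16, limma adjusted p = 0.881), with 0.05 in females and 0.06 in males. Its neighbours in tyrosine breakdown had log2 changes of -0.11 for Hpd, -0.01 for Hgd and -0.23 for Fah, and none of the 5 genes of that list was called.

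Among the microsomal genes, Mgst1, a membrane enzyme of the endoplasmic reticulum and mitochondria that conjugates electrophiles and reduces lipid hydroperoxides, was at 4.12 and 4.25 in control females and at 2.53 and 3.37 in control males. In NEKO kidneys it was at 4.81 and 4.94 in females and at 5.04 and 5.72 in males. The gap between the groups, 0.56, was the widest of the 8 genes. The log2 change was 1.56 (standard error 0.39, limma adjusted p = 0.138), a 2.95-fold difference, and a second probe gave 1.57. Without control replicate 4 it was 1.22.

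Mgst2, which can make leukotriene C4, was at -2.90 and -2.30 in control females, -3.99 and -3.27 in control males, -1.40 and -2.14 in NEKO females and -1.44 and -1.48 in NEKO males. The groups were separated by 0.15, between NEKO replicate 3 and control replicate 8, both females. The log2 change was 1.50 (standard error 0.34), with the lowest adjusted p of the 8 genes (0.120, limma), and 1.22 without control replicate 4. The signal of this probe was near the dim end of the array while well above background on all 8, and with the normexp background correction the log2 change was 1.02.

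Mgst3, which has glutathione peroxidase activity, had its highest level in a control mouse. Its levels were 3.59 and 3.91 in control females, 2.25 and 3.59 in control males, 3.63 and 3.14 in NEKO females and 2.78 and 3.22 in NEKO males. The groups overlapped throughout, with a log2 change of -0.15 (standard error 0.31, limma adjusted p = 0.820). Without control replicate 4, the lowest of the 8 arrays, it was -0.46, and without control replicate 7 it was 0.08.

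**Figure D2:**
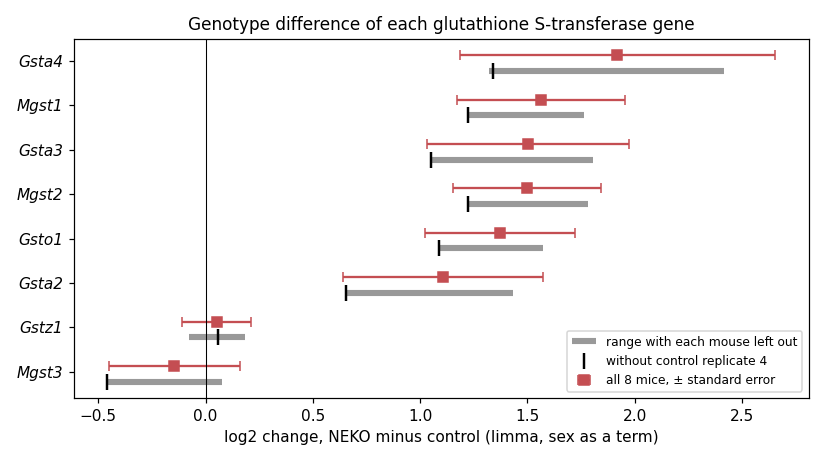
Log2 change of each gene, NEKO minus control (x axis), from the limma fit with sex as a term. Red squares with bars are the value and standard error over 8 mice, grey bars the range when each mouse is left out in turn, and black ticks the value without control replicate 4. For Gsta2, Gsta3, Gsta4, Gsto1, Mgst1 and Mgst2 the whole grey range lies above 0, while those of Gstz1 and Mgst3 cross 0.

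To ask whether these genes differed in the size of their genotype effect, the difference between each of 28 pairs of genes was taken in every array and compared between the groups by exact permutation. At the smallest p that 4 against 4 can give (0.0286), 9 pairs were found, and none was past the threshold after adjustment over the 28 pairs (adjusted p = 0.0889 at the lowest). Since no pair can go below 0.0286, pairs can pass this adjustment only when most of them reach that p together. No conclusion is therefore drawn from the lack of called pairs. Of the 9 pairs, 7 set Mgst3 or Gstz1 against a gene with a larger change, such as Mgst1 against Mgst3 (1.71, standard error 0.33). The remaining pairs were Gsta2 against Gsta3 (-0.40, standard error 0.13) and against Mgst1 (-0.46, standard error 0.21). The difference between Gsto1 and Mgst1 was -0.19 (standard error 0.16, exact permutation p = 0.343), and that between Gsta3 and Mgst1 was -0.06 (standard error 0.19, exact permutation p = 0.886).

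The signed log2 change, NEKO minus control, was above that of females in males for 8 of the 8 genes, as it was for 50.2% of all features. For Gstz1 the values of the sexes were 0.05 and 0.06, and for Mgst3 -0.37 in females and 0.08 in males. With each of the 8 mice left out in turn, the sign of this sex difference was kept for Gsta2, Gsta3, Gsta4, Gsto1, Mgst1 and Mgst2. For Gstz1 it was kept in 4 of the 8 cases, and for Mgst3 it turned to -0.22 without control replicate 4. In females the median log2 change over the 8 genes was 0.36 and in males 2.20, against -0.03 in both sexes over all features. Both NEKO males lay above both control males for 6 of the 8 genes (24.2% of all features), and both NEKO females above both control females for 4 (17.3%). In males the fold difference was 12.0 for Gsta4, 5.80 for Gsta3, 5.40 for Mgst1, 4.68 for Gsto1, 4.51 for Mgst2 and 4.06 for Gsta2. Without control replicate 4, which leaves 1 control male, these folds were 7.83, 3.80, 4.05, 3.84, 3.52 and 2.55 in the same order. In females the same genes differed by 1.19-fold, 1.38-fold, 1.61-fold, 1.43-fold, 1.77-fold and 1.14-fold. The direction in females depended on 1 mouse for Gsta4 and Gsta2, with log2 changes of -0.16 and -0.17 without control replicate 8 against 0.66 and 0.55 without control replicate 1. With 2 mice against 2, an exact test within 1 sex cannot go below p = 0.333.

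The difference between the sexes was tested as an interaction in limma. None of the 8 genes was called (0.0153% of all features were), and 6 had an unadjusted p under 0.05, where 10.5% of all features did. The interaction was largest for Gsta4, at 3.34 on the log2 scale (standard error 0.81, limma adjusted p = 0.200), and its adjusted p lowest for Gsto1, at 1.71 (standard error 0.30, limma adjusted p = 0.130). Without control replicate 4 it was 2.72 for Gsta4, 1.42 for Gsto1, 1.46 for Gsta3, 1.16 for Gsta2, 1.33 for Mgst1, 0.99 for Mgst2 and 0.02 for Gstz1, and again none was called. Without control replicate 1, which lacks K5-Cre, the interaction was 2.93 for Gsta4, 1.64 for Gsto1, 1.83 for Gsta3 and 1.48 for Gsta2. For Mgst1, Mgst2, Mgst3 and Gstz1 it was then 1.81, 1.65, 0.61 and -0.32. Control males were below control females for 7 of the 8 genes (52.8% of all features), and NEKO males above NEKO females for 7 (53.6%). For the 6 genes with an unadjusted limma p under 0.05 in the comparison of the genotypes, control males were lower than control females by a log2 difference of -2.71 to -0.94, whereas NEKO males were higher than NEKO females by 0.32 to 0.82. Low control males add to that comparison, so the choice of these 6 genes is not independent of this contrast. Males were lower in both groups for Mgst3 (-0.83 in controls, -0.38 in NEKO) and higher in both for Gstz1 (0.11 and 0.12). Both control males carried K5-Cre and control replicate 1, a female, did not, so sex and K5-Cre were partly mixed in the controls. Without control replicate 4 the contrast in controls was -0.63 for Gsta3 and -0.66 for Gsto1. These were smaller in size than the 0.82 and 0.76 in NEKO mice. For Gsta2, Gsta4, Mgst1 and Mgst2 the control contrast was -0.65, -2.09, -0.82 and -0.67, and stayed larger in size than in NEKO mice. There it was 0.51, 0.63, 0.51 and 0.32 in the same order.

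**Figure D3:**
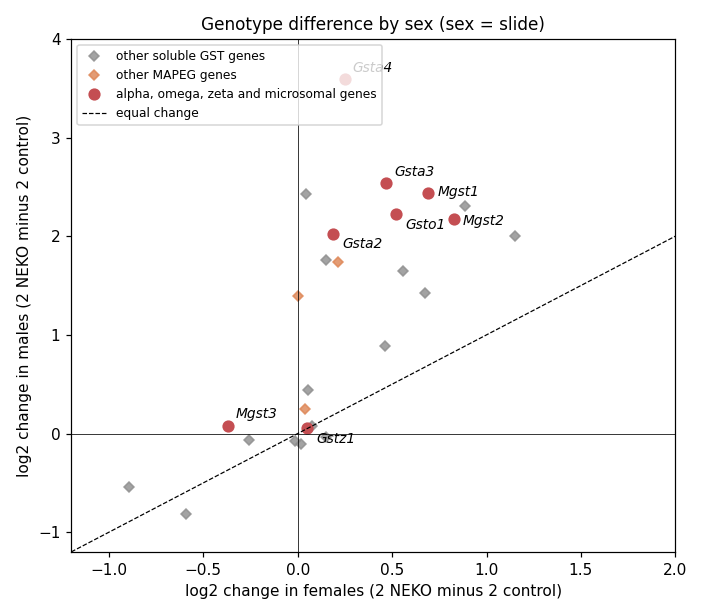
Log2 change in males (y axis) against that in females (x axis), each the mean of 2 NEKO minus 2 control mice. Red circles are the 8 alpha, omega, zeta and microsomal genes, grey diamonds other soluble glutathione S-transferases, orange diamonds other MAPEG genes, and the dashed line equal change. Gstz1 (0.05 in females, 0.06 in males) lies next to the line and the other red circles above it, Gsta4 (0.25 and 3.59) the highest.

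The other genes of glutathione metabolism were taken as lists. Of 20 other soluble glutathione S-transferase genes 15 were tested, and 1 was called higher, Gstp1, the pi class enzyme (log2 change 1.57, limma adjusted p = 0.049), whose probe may also read its near-identical neighbours. None was called lower. The groups were separated for 5 of the 15, with NEKO mice above in 4 (Gstm1, Gstm3, Gstm4 and Gstp1) and below in 1 (Hpgds, a prostaglandin D synthase), and the median log2 change was 0.25. The signal of Hpgds was dim, at -6.05 in NEKO replicate 3, and well above background on only 6 of the 8 arrays. The other MAPEG genes had log2 changes of 0.14 for Ptges, a prostaglandin E synthase, 0.70 for Alox5ap, the 5-lipoxygenase activating protein, and 0.97 for Ltc4s, leukotriene C4 synthase, and none of the 3 was called. For Alox5ap and Ltc4s the log2 changes were 1.40 and 1.74 in males and -0.00095 and 0.21 in females.

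Of the 24 listed genes of the mercapturate pathway, which exports and trims glutathione conjugates, 18 were tested and none was called by limma. The exporters Abcc1, Abcc3 and Abcc4 were the 3 genes of that list whose groups did not overlap, each higher in NEKO kidneys, and the median log2 change was 0.26. Averaged over the sexes in the interaction model, these 3 were called (limma adjusted p = 0.039, 0.0041 and 0.027), as was Gsr of the supply genes (0.042), and Gstm1, Gstm3, Gstm4 and Gstp1 of the soluble transferases (0.031, 0.011, 0.042 and 0.0055). Ggt1, the brush border enzyme that removes glutamate from conjugates, had a log2 change of 0.03. Among 4 tested genes of glutathione supply none was called, the groups were separated for glutathione reductase (Gsr, log2 change 1.20) and the median was 0.76. Of 6 tested reference targets of NRF2, 1 was called higher, thioredoxin reductase Txnrd1 (log2 change 1.30, limma adjusted p = 0.049), 3 were separated above, and the median was 1.12. Averaged over the sexes in the interaction model, Nqo1, Txnrd1 and Srxn1 of these targets were called higher (limma adjusted p = 0.0095, 0.0091 and 0.0087). The 5 CLIC genes, chloride intracellular channel proteins with an omega-like fold, had a median of -0.03 and none was called.

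**Figure D4:**
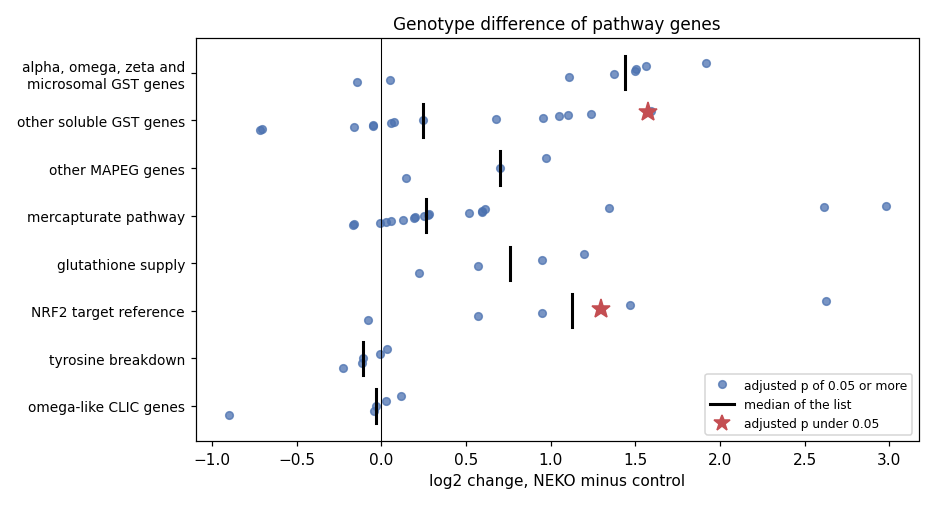
Log2 change, NEKO minus control (x axis), of every tested gene of each list (rows). Circles are single genes, red stars the genes called by limma (adjusted p under 0.05), and black lines the median of the list. The medians run from -0.11 for tyrosine breakdown to 1.44 for the 8 alpha, omega, zeta and microsomal genes, and the stars are Gstp1 and Txnrd1.

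For each of the 8 genes, the named gene with the most similar mean-centred profile over the 8 arrays was found among 12691 genes, a description since the arrays share the mice. For both Gsto1 and Mgst1 it was Ephx1, microsomal epoxide hydrolase, at root mean square differences of 0.142 and 0.242 on the log2 scale. In Ephx1 itself the change was 1.30 over all mice, 0.66 within the females and 1.94 within the males. Gsta3 was most like Ly6d (0.297), Gsta4 most like the glutamine transporter Slc38a3 (0.493) and Mgst2 most like the retinol carrier Rbp4 (0.247). Gstz1 was most like Tmem53 (0.0648) and Mgst3 most like Itpka (0.175), an inositol trisphosphate kinase. Among the 8 genes themselves, Gsto1 and Mgst1 were the closest pair, at 0.213.

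Markers of other cell types were read in the same mice. For the 5 urothelial markers the median was 0.06 in the female mice and 2.12 in the male mice on the log2 scale, and their summed signal, in units of the 75th percentile, ran from 1.03 to 2.62 in controls and from 1.70 to 4.72 in NEKO kidneys. Over all mice the probe read for Upk1a (-0.71) differed in sign from the other 4, with every NEKO mouse below the controls. This probe was at -1.22 in females and -0.20 in males. A second kept Upk1a probe gave 0.92 (standard error 0.32), so the sign for this gene depended on the probe. The 4 fibroblast markers had medians of -0.33 in females and 1.48 in males, with sums of 21.0 to 38.2 and 25.8 to 77.4. The 2 tested neutrophil markers had sums of 0.167 to 0.485 and 0.306 to 6.58. The sums of the 5 intercalated cell markers were 35.6 to 47.8 in controls and 6.24 to 23.3 in NEKO kidneys. By gene, the log2 change was -2.07 for Slc26a4, -0.90 for Atp6v1g3, -0.90 for Atp6v0d2, -0.91 for Slc4a1 and -0.09 for Foxi1. The groups overlapped for Atp6v0d2, Slc4a1 and Foxi1. The median log2 change was -0.90 for the intercalated cell markers and -0.81 for those of the distal convoluted tubule. It was -0.27 for the thick ascending limb and -0.21 for principal cells. Medians of the other lists were 0.03 for macrophages, 0.19 for endothelium, 0.19 for lymphocytes, 0.22 for podocytes and 0.42 for tubular injury. The 6 tested markers of the proximal tubule had a median log2 change of 0.11, with sums of 422 to 559 and 479 to 576. The 4 markers of its S3 segment had a median of -0.75 and sums of 218 to 351 and 184 to 306. Within the sexes the median of these 4 was 0.03 in females and -0.44 in males. Among them, Slc7a13 was at -1.46, and Slc22a7 at 1.56 in females and -5.93 in males. Kap was at -0.03 and Slc5a1 at 0.07. The part of these cell types in the levels of the transferase genes was not tested.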

How the data were processed

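Kidney RNA of 4 NEKO and 4 control mice was measured on 8 Agilent 1-colour arrays. The authors deposited Feature Extraction output with intensity values per spot, in which the processed signal is background-subtracted, and a matrix of log2 values. Of that matrix, 99.9% of values lay within 0.01 of log2 processed signals recomputed relative to the 75th percentile and centred on each probe's median. The methods do not name an array normalization.

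Outlier spots (73 to 172 of 43379 per array) were left out, spots of 1 probe averaged, and log2 values taken relative to the 75th percentile of non-control probes. A probe was kept if it had a value on 6 or more arrays and was well above background on 4 or more. The brightest kept probe, by its mean over all arrays, stood for the gene. RefSeq (GRCm38.p6) named 26690 of 41174 probes by accession. limma 3.58.1 (R 4.3.3) was fitted with lmFit and eBayes on genotype and sex, with Benjamini-Hochberg adjustment over 13570 named genes and 6023 unnamed transcripts, and was tested on simulated data. The number of arrays limits the precision. Labels do not state separate litters, so p-values measure the spread between these mice.

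The genes, lists and tests were chosen with earlier results of these data known. Named in the text are the 9 genes, called genes of each list, Gsta1, Gsto2, Ptges, Alox5ap, Ltc4s, Ggt1, Hpd, Hgd and Fah, Keap1 and Nqo1 as checks, and the most similar gene of each. Genes of the lists whose groups did not overlap, and Upk1a and the S3 and intercalated cell markers, were named after their values were seen. Alternatives were other background corrections, scalings, filters, probe summaries, covariates, variance models, tests and thresholds, the deposited matrix and leaving out each mouse. Normexp used the median signal, since the mean signal was not used here.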

Additional observations from a re-analysis of the deposited data

Results flagged for a closer look

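Of the 16 sets of 4 mice looked at (8 genes in 2 groups), 2 held a mouse far from the others, both in the NEKO group. About 1 in 20 is expected by chance among independent sets. These sets mix the sexes and share the same mice between genes, so that figure is only a guide. For Gsta4, NEKO replicate 6 stood above the other 3 NEKO mice with a gap that was 0.919 of the range of the group, more than Dixon's critical value for 4 values. For Mgst2, NEKO replicate 3 stood below the others with a gap of 0.898 of the range.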

How the results depend on the processing

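The methods state that controls were littermates, but the labels do not say which mice share a litter, so no paired analysis was possible. Of the 8 genes, 3 were called higher when the effect was averaged over the sexes and 4 with the methods' unpaired test before adjustment, and 0 under every other alternative run; 0 were called lower. No alternative run called an interaction. None called a pair of genes either, where the smallest exact p limited what could be called. Of the pathway genes called higher, which were 2 in the fit described, 11 were called when averaged over the sexes, 10 (and 1 lower) with the methods' test before adjustment and 0 after it, 3 with normexp background correction, 1 with quantile normalization, with scaling to the median of detected probes and with the mean of the kept probes, 0 with no filter on dim probes, detection on all 8 arrays, the slide as a block, no term for sex or an adjusted p under 0.01, and 0 to 1 when each mouse was left out. The cause was not tested. Leaving out each mouse gave log2 changes of -0.078 to 0.18 for Gstz1 and -0.46 to 0.077 for Mgst3, and kept the sign of the other 6 genes. Other settings kept the sign of all 8.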
